A study of Mus musculus with 2 samples.

Results

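The chemokines Cxcl9, Cxcl10, Cxcl16, Ccl3, Ccl4, Ccl5 and Xcl1 and the receptors Cxcr3 and Cxcr6 were followed through the immune cells of B16 mouse melanoma tumours. These 9 genes, of 31053 in the count matrix, were taken by their symbols, and each had 1 row. The data were single-cell RNA counts of live CD45+ cells (cells carrying the pan-leukocyte surface protein CD45), 1 library from WT mice (Mettl3 fl/fl, Lyz2 +/+) and 1 from KO mice (Mettl3 fl/fl, Lyz2 cre/+), so that both groups carried the floxed Mettl3 allele. All mice were 8 weeks old and bore subcutaneously grown B16 tumours, and the cells of several mice were pooled in each library. Mettl3 is the catalytic subunit of the complex that writes N6-methyladenosine on mRNA. Lyz2-driven Cre acts in macrophages, monocytes, granulocytes and some dendritic cells (DCs), and not as a rule in lymphocytes. The study asked how Mettl3 loss in myeloid cells alters the tumour immune microenvironment. With 1 library per genotype no test between genotypes was possible, and every interval is a 95% interval that covers counting error only, neither mice nor cells being replicates.

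Chemokines draw leukocytes along a gradient through G protein-coupled receptors. Interferon-gamma from T and natural killer (NK) cells induces CXCL9 and CXCL10 in myeloid cells, and both bind CXCR3 on activated T and NK cells. CXCL16, held on the surface of antigen-presenting cells until proteases cut it, binds CXCR6, a receptor of tissue-resident and effector T cells. CCL3, CCL4 and CCL5 are CC chemokines that attract T cells and myeloid cells, and CCL3 and CCL5 bind CCR1, whereas XCL1 from CD8 T and NK cells binds XCR1, which among leukocytes marks type 1 conventional DCs (cDC1).

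The libraries held 5895 barcodes with 45963969 unique molecular identifiers (UMIs, counted molecules) and 8446 barcodes with 54052317 UMIs, labelled WT and KO, of which 5405 and 7625 cells were kept, with medians of 4148 and 3567 UMIs. Only 13 barcode sequences occurred in both. Mettl3 counts did not follow the labels: in macrophages there were 9.75 UMIs in every 1000000 (171 UMIs) in the library labelled WT and 10.5 (176 UMIs) in the library labelled KO, and 3' counts do not show whether an inner exon was deleted. Lyz2 was the other check of the labels, since the Cre sits in 1 of its alleles in KO mice, and it ran the way they say, being lower in the library labelled KO, at 6019 and 2749 on the same scale in macrophages. It was 646 and 120 in CD8 T cells, which are not known to make it, and the 10 macrophage markers, all detected there, summed to 439 and 331. Because Mettl3 was not lower in macrophages of the library labelled KO, the libraries are named by their labels throughout. Cells were assigned to classes by marker genes that held none of the 9, and in each named class the leading genes held its own markers. A band of cells between the macrophage and the monocyte gates was led by monocyte genes (Fn1, Vcan, Chil3) and received no cell type name, and 463 and 471 cells carried markers of more than 1 class. A level below is in counts per 1000000 (CPM), the UMIs of a gene in every 1000000 UMIs of the class, a scale on which 3' counts are not divided by gene length, so levels are compared between classes and libraries and not between genes.

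Cxcl9 and Cxcl10 are neighbours on mouse chromosome 5 (GRCm38, GENCODE vM21), at chr5:92321347-92328079 and chr5:92346638-92348889 on the minus strand, 18558 bases apart, and each has 4 exons. Ccl3 (chr11:83647844-83649355) and Ccl4 (chr11:83662584-83664683) are likewise 13228 bases apart, with 3 exons each. Ccl5 lies at chr11:83525778-83530518, Cxcl16 at chr11:70453983-70459984, Cxcr3 at chrX:101731535-101734269, Cxcr6 at chr9:123806475-123811760 and Xcl1 at chr1:164931644-164935527. RefSeq promoter sequence (GRCm38.p6) was matched for 6 of the 9 genes, with Cxcl16, Ccl4 and Ccl5 not analysed here. The 250 bases before the start of Cxcl9 (chr5:92328080-92328329) and Cxcl10 (chr5:92348890-92349139) are shown, read on the gene's strand, because the levels of both genes differed between the libraries in several classes. Capitals mark matches to the NF-kB pattern (GGGNNTTCC or GGGNNNTTCC, either strand) and the interferon-stimulated response element (ISRE) core (GAAANNGAAA, either strand).
Cxcl9: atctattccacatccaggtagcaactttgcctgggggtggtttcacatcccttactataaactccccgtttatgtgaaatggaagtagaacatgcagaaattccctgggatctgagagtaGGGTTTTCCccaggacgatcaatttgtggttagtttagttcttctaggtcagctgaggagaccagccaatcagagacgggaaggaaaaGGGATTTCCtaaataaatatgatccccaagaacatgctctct
Cxcl10: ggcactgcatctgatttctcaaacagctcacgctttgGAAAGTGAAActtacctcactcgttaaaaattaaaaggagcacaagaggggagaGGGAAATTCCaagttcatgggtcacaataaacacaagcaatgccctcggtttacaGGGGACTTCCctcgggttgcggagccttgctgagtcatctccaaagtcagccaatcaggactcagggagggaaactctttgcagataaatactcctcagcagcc
Cxcl9 held the NF-kB matches GGGTTTTCC, 130 to 122 bases before the start, and GGGATTTCC, 42 to 34 bases before it. Cxcl10 held GGGAAATTCC at 159 to 150 and GGGGACTTCC at 104 to 95, the latter overlapping the shorter match GGGACTTCC at 103 to 95, and the ISRE core GAAAGTGAAA at 213 to 204. The same windows of Cxcr3, Cxcr6, Ccl3 and Xcl1 held neither pattern. Of 32851 mouse promoters of this length, 8.26% held an NF-kB match and 2.98% an ISRE core. A match is a run of letters and was not tested as a binding site.

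Macrophages held the highest Cxcl9, granulocytes the highest Ccl3 and Ccl4, mature Ccr7+ DCs the highest Cxcl16 and Ccl5, NK cells the highest Xcl1, and CD4 and CD8 T cells the highest Cxcr6. Monocytes held the highest Cxcl10 in the library labelled KO, whereas in the library labelled WT the intervals of monocytes and macrophages overlapped.

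**Figure D1:**
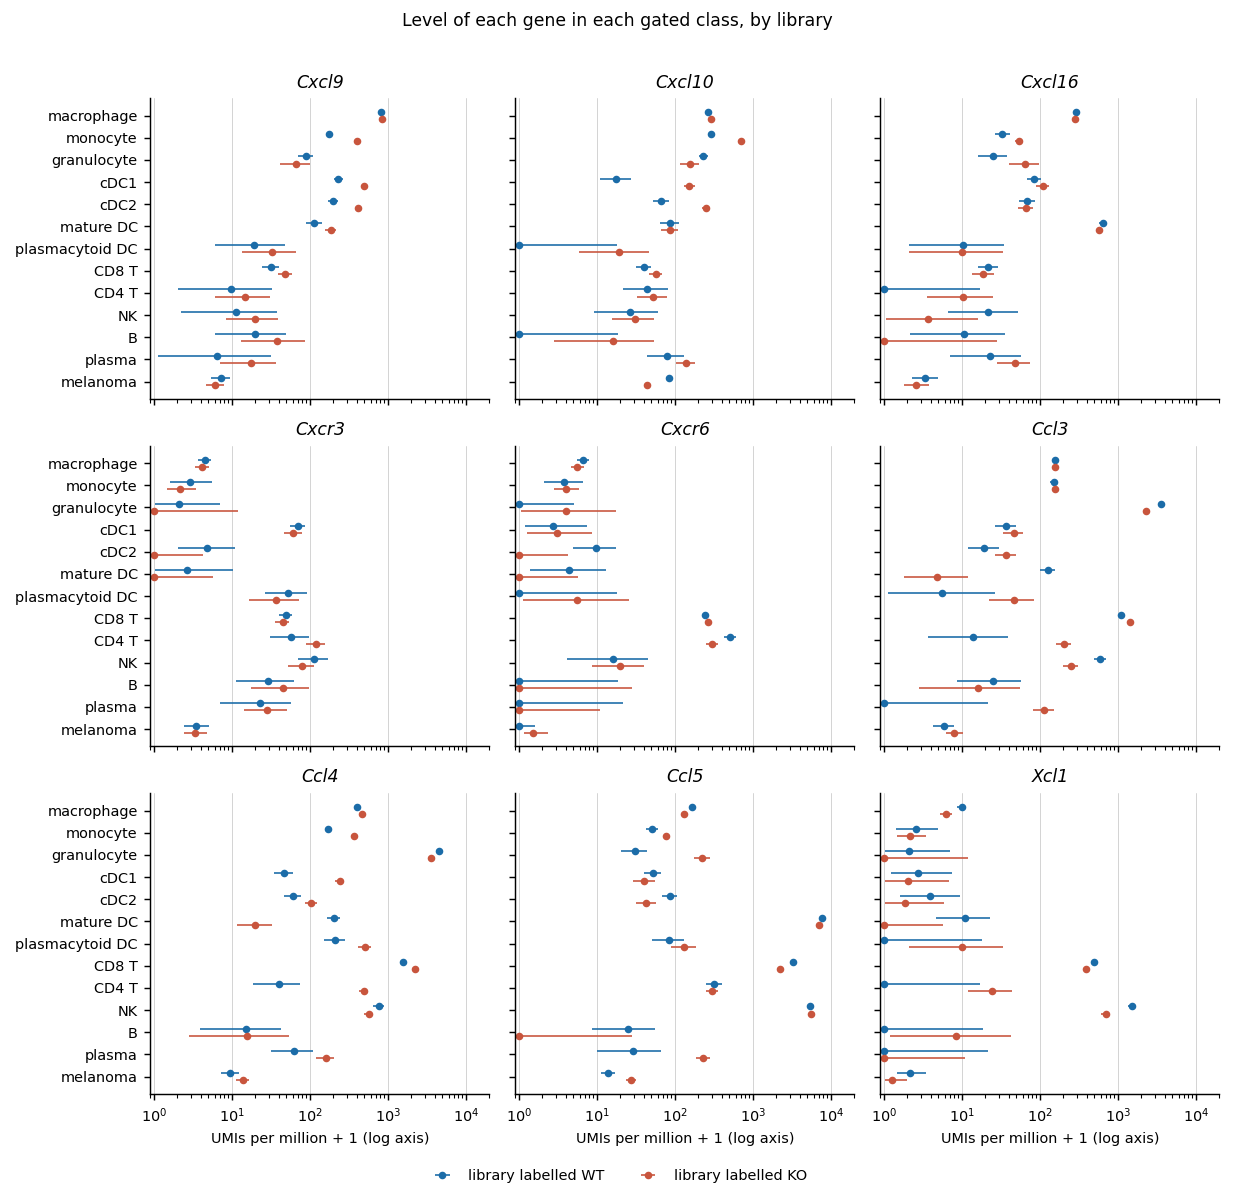
Level of each gene (CPM + 1, log axis) in 13 cell classes, with 1 panel per gene. Points are the libraries labelled WT and KO and bars are exact Poisson 95% intervals; Cxcl9 stood at 808 and 838 in macrophages, and Ccl5 at 7594 and 7052 in mature DCs, above every other class in both libraries.

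The CXCR3 ligand Cxcl9 came mostly from macrophages, where its level was 808 (14171 UMIs, 795 to 822) labelled WT and 838 (14012 UMIs, 824 to 852) labelled KO. The log2 ratio of KO over WT was 0.05 (0.02 to 0.09). A Cxcl9 UMI was found in 49.2% of the WT-labelled macrophages and 44.5% of the KO-labelled ones, and after thinning every cell to 1000 UMIs the shares were 27.9% and 27.4%. In B cells, which are not known as a source, the thinned shares were 0.990% (1 cell of 101) and 6.90% (4 of 58), with median depths of 1397 and 1105 UMIs against 9281 and 6830 in macrophages. Cycling macrophages held more than non-cycling ones, 966 against 619 and 991 against 707. Cycling cells were deeper, at medians of 16159 and 13445 UMIs against 6681 and 5244, and the part of depth was not tested.

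In monocytes and DCs Cxcl9 was higher in the library labelled KO. Its level was 174 and 397 in monocytes (log2 ratio 1.19, 1.04 to 1.34), 232 and 496 in cDC1 (1.10, 0.88 to 1.32), 198 and 417 in cDC2 (1.07, 0.83 to 1.32) and 113 and 185 in mature DCs (0.71, 0.28 to 1.14), giving the WT-labelled value first. The difference was not carried by 1 cell in any of them: without the cell of each library with the most Cxcl9, the values were 155 and 383 in monocytes, 169 and 431 in cDC1, 119 and 357 in cDC2 and 85.3 and 143 in mature DCs. With stricter gates, however, cDC1 held 222 and 255 (log2 ratio 0.20), and thinning to 1000 UMIs left cDC2 at 236 and 353 (0.58), just under 1.5-fold. In granulocytes the level was 88.9 and 65.4, and the interval of the log2 ratio, -1.19 to 0.25, spanned 0.

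Cxcl10, the interferon-inducible partner of Cxcl9 at CXCR3, was at 286 (732 UMIs, 265 to 307) in WT-labelled monocytes and 699 (4116 UMIs, 678 to 721) in KO-labelled ones, a 2.45-fold difference with a log2 ratio of 1.29 (1.18 to 1.41). The share of monocytes with a Cxcl10 UMI was 18.9% and 29.0%, and 11.3% and 19.6% after thinning. In B cells 0 of 101 (a count of 0 allows up to 2.97%) and 1 of 58 thinned cells held one. The level in macrophages was 268 and 285 (log2 ratio 0.09, 0.03 to 0.15), so the higher value in monocytes was not shared by the class that held most Cxcl10 UMIs. In cDC1 the counts were 19 and 146 UMIs, or 16.7 and 153 CPM (log2 ratio 3.19, 2.49 to 3.96), of which 1 KO-labelled cell held 46 UMIs, and 12.5 and 106 remained without the top cells. Under stricter gates the cDC1 levels were 12.99 and 17.3 (0.42). The stricter gates changed the margin, the limit on markers of a second class and the band between macrophages and monocytes together, and which of these removed the gap was not tested. In cDC2 the level was 65.3 and 248 (1.93, 1.54 to 2.33), and in mature DCs 85.1 and 84.9, where 1 WT-labelled cell held 80.4% of the UMIs and 16.8 and 70.3 remained without the top cells. Melanoma cells that had passed the CD45 sort went the other way, with 83.8 and 43.4 (-0.95, -1.16 to -0.74), a ratio that was -0.34 when they were thinned.

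Marker genes of other classes moved with these values in part. The summed level of the 12 monocyte markers was 826 and 1331 in cDC1 (10 and 11 of 12 detected, Ace and Hp at 0 in the first library and Adgre4 in the second) and 1698 and 2525 in cDC2 (11 and 12 detected, Hp at 0 in the first), higher in the library labelled KO as Cxcl10 was, and their part in the result was not tested. The 10 macrophage markers, all detected, summed to 320 and 333 in cDC1, 506 and 579 in cDC2, and 1986 and 1815 in monocytes. In mature DCs the monocyte markers summed to 98.5 and 198 (8 and 9 of 12 detected, with Adgre4 at 0 in both libraries), higher in the library labelled KO as Cxcl9 was, and their part in that value was not tested. The macrophage markers there summed to 270 and 223 (10 and 9 detected, Fcrls at 0 in the second library).

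CXCL16 is the ligand of CXCR6, and its gene was highest in mature DCs at 637 (575 to 705) and 575 (524 to 631), labelled WT and KO, the log2 ratio being -0.15 (-0.35 to 0.05). Macrophages followed at 288 and 280 (-0.04, -0.10 to 0.01). Next came cDC1 at 83.7 and 108 and cDC2 at 68.2 and 64.5, whose intervals overlapped in the library labelled WT and not in the library labelled KO. T cells were at 20.6 and 17.6. No class at 50 CPM or more differed by 1.5-fold. Of all Cxcl16 UMIs, macrophages held 70.4% and 64.8%.

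Among the CC chemokines, Ccl3 and Ccl4 were highest in granulocytes and followed each other across classes. Granulocytes were shallow cells, with medians of 1301 and 1037 UMIs, and their Ccl3 level was 3601 (3283 UMIs, 3479 to 3727) labelled WT and 2280 (767 UMIs, 2122 to 2448) labelled KO, with a log2 ratio of -0.66 (-0.77 to -0.55). Ccl4 stood at 4567 (4429 to 4707) and 3579 (3380 to 3787), and its log2 ratio was -0.35 (-0.45 to -0.26). In this class the composition of the libraries differed: scaling by trimmed mean of M values moved all ratios by -0.18 on the log2 scale, and the median of all genes was 0.11. Granulocytes without a UMI of Retnlg, a gene of mature neutrophils, held Ccl3 at 5783 and 4800 and Ccl4 at 7686 and 6766, and those with one held Ccl3 at 2497 and 668 and Ccl4 at 2987 and 1541. The KO-over-WT gap was thus wider in the Retnlg-positive cells, which were also the deeper ones (medians of 1438 and 1085 UMIs against 1148 and 887). The difference between the gaps was not tested.

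CD8 T cells came next, with Ccl3 at 1083 and 1416 (log2 ratio 0.39, 0.31 to 0.47) and Ccl4 at 1558 and 2219 (0.51, 0.44 to 0.58). Single cells weighed on the values of both libraries. In the library labelled KO 1 cell held 18.3% of the Ccl4 UMIs and 1 cell 10.7% of the Ccl3 UMIs. In the library labelled WT 1 cell held 292 of 3136 Ccl4 UMIs and 1 cell 242 of 2180 Ccl3 UMIs. The share of CD8 T cells with a Ccl4 UMI after thinning went the other way, 37.2% and 30.7%, and for Ccl3 it was 24.2% and 23.2%, so no order of the libraries is read from the levels. In macrophages Ccl3 was at 157 and 155 and Ccl4 at 404 and 464 (0.20, 0.15 to 0.24). In monocytes Ccl3 was at 149 and 156 (0.07, -0.11 to 0.24) while Ccl4 was at 170 and 370 (1.12, 0.97 to 1.27), a pair of values by which the neighbours parted. Without the top cells monocyte Ccl4 was 148 and 340.

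Ccl4 in cDC1 was 45.8 and 239 (2.38, 1.95 to 2.85), with 38.9% of the KO-labelled UMIs in 1 cell and values of 38.8 and 147 without the top cells. The thinned shares of cDC1 with a Ccl4 UMI were 8.70% and 8.74%, which do not follow the levels. In cDC2 Ccl4 was 59.6 and 103 (0.79, 0.33 to 1.26), and thinning turned it to 111 and 68.4 (-0.70). Single cells held most of the Ccl3 and Ccl4 of WT-labelled mature DCs: 1 cell held 60 of the 75 Ccl3 UMIs and 1 cell held 109 of the 120 Ccl4 UMIs. The levels were 125 and 3.80 for Ccl3 and 200 and 19.0 for Ccl4 with all cells, and 25.1 and 2.56 and 18.4 and 10.2 without the top cells, so Ccl3 stayed lower in the library labelled KO without them (log2 ratio -3.29), on 3 KO-labelled UMIs in all. The Ccl4 ratio was -0.85 without them and turned to 0.26 under stricter gates.

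Ccl5, a ligand of CCR1, was highest in mature DCs at 7594 (7375 to 7818) and 7052 (6868 to 7240), and the log2 ratio was -0.11 (-0.16 to -0.05). NK cells followed at 5335 (83 cells) and 5553 (181 cells). CD8 T cells held 3246 (3168 to 3326) and 2205 (2141 to 2271), a log2 ratio of -0.56 (-0.61 to -0.50), and all T cells, which include them, 2806 and 1826 (-0.62, -0.67 to -0.57). The share of CD8 T cells with a Ccl5 UMI was close in the libraries, 74.3% and 70.3% after thinning, and thinning left the ratio of all T cells at -0.34, inside 1.5-fold. Ccl5 was lower in macrophages, at 164 and 131, and in monocytes, at 49.6 and 76.8 (0.63, 0.35 to 0.93), where stricter gates turned the ratio to -0.60. The 223 CPM of KO-labelled granulocytes, against 29.6, came from 75 UMIs of which 1 cell held 90.7%, and 15.4 and 21.3 remained without the top cells. Similarly, 1 cell held 55.7% of the Ccl5 UMIs of WT-labelled cDC2, where the levels of 84.5 and 41.8 became 38.1 and 25.6.

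Xcl1, the ligand of the cDC1 receptor Xcr1, was highest in NK and CD8 T cells. T cells whose CD4 or CD8 type was unclear held 125 (53 UMIs) and 59.5 (35 UMIs), CD4 T cells 0 and 23.2 (10 UMIs), and every other named class 10.01 or less. Cells that were mixed or in no class used here held 19.9% and 31.5% of the Xcl1 UMIs. NK cells held 1499 in the library labelled WT, where 1 cell carried 49.2% of the UMIs, and 694 in the library labelled KO, and without the top cells 792 and 581. CD8 T cells held 499 (469 to 531) and 383 (357 to 411), a log2 ratio of -0.38 (-0.52 to -0.24), but the share of CD8 T cells with an Xcl1 UMI after thinning was 7.37% and 13.3%, in the opposite order, so no order is read. The receptor Xcr1 stood at 376 and 401 in cDC1 and at 4.05 or less in macrophages, monocytes, granulocytes, cDC2, CD8 T and NK cells, and at 3.34 (2 UMIs) and 16.5 (13 UMIs) in mature DCs.

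The receptor Cxcr6 was found mostly in T cells, and Cxcr3 in lymphocytes and some DCs. Cxcr6 was 271 (251 to 291) and 276 (258 to 295) in T cells, the log2 ratio being 0.03 (-0.12 to 0.17). Within T cells it was 241 and 262 in CD8 T cells, 513 and 296 in 72 and 119 CD4 T cells, and it was 0 in B cells and 15.2 and 18.8 in NK cells. Cxcr3 was 70.1 (60.4 to 80.9) and 66.7 (57.8 to 76.5) in T cells (-0.07, -0.37 to 0.22). It was 112 and 77.7 in NK cells, 56.5 and 118 in CD4 T cells and 48.2 and 43.6 in CD8 T cells, levels whose intervals overlapped between NK and CD4 T cells. Cxcr3 was also present in cDC1, at 68.7 (78 UMIs in 45 of 115 cells) and 60.6 (58 UMIs in 36 of 112 cells), and in plasmacytoid DCs, at 50.8 (11 UMIs) and 35.9 (8 UMIs), and was 3.84 and 0 in cDC2 and 1.67 and 0 in mature DCs. The thinned share of cDC1 with a Cxcr3 UMI was 6.09% and 4.85%, against 0.27% and 0.28% of macrophages.

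The levels were then read against all genes. A gene was counted where the mean of the libraries was at least 50 CPM, and called where the ratio, with 1 CPM added to both levels, was at least 1.5-fold. In monocytes 4 of the 5 members counted were called higher in the library labelled KO (Cxcl9, Cxcl10, Ccl4 and Ccl5), where 3.86% of all genes counted were, and 0 lower, where 0.376% were. In cDC1 3 of 5 were higher (Cxcl9, Cxcl10 and Ccl4; 4.24% of all genes) and 0 lower (1.16%), and in cDC2 the same 3 were higher (3.21%) and Ccl5 was lower (1.81%). The median log2 ratio of the members counted was 1.11 in monocytes, 1.10 in cDC1 and 0.78 in cDC2, and that of all genes 0.02, 0.04 and 0.02.

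In macrophages 0 of 6 members were called higher (1.14% of all genes) or lower (0.214%), and in CD8 T cells 0 of 5 (1.08% and 0.896%). Of 6 members counted in mature DCs, Cxcl9 was higher (3.89%) and Ccl3 and Ccl4 lower (2.18%), and of 5 in granulocytes, Ccl5 was higher (9.82%) and Ccl3 lower (4.67%), the Ccl5 value resting on the single cell named above. Among T cells Ccl5 was the 1 of 7 called lower (0.434%), with 0 higher (0.651%). Melanoma cells had only Cxcl10 above the minimum, and it was lower (1.65% of all genes lower, 1.12% higher).

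**Figure D2:**
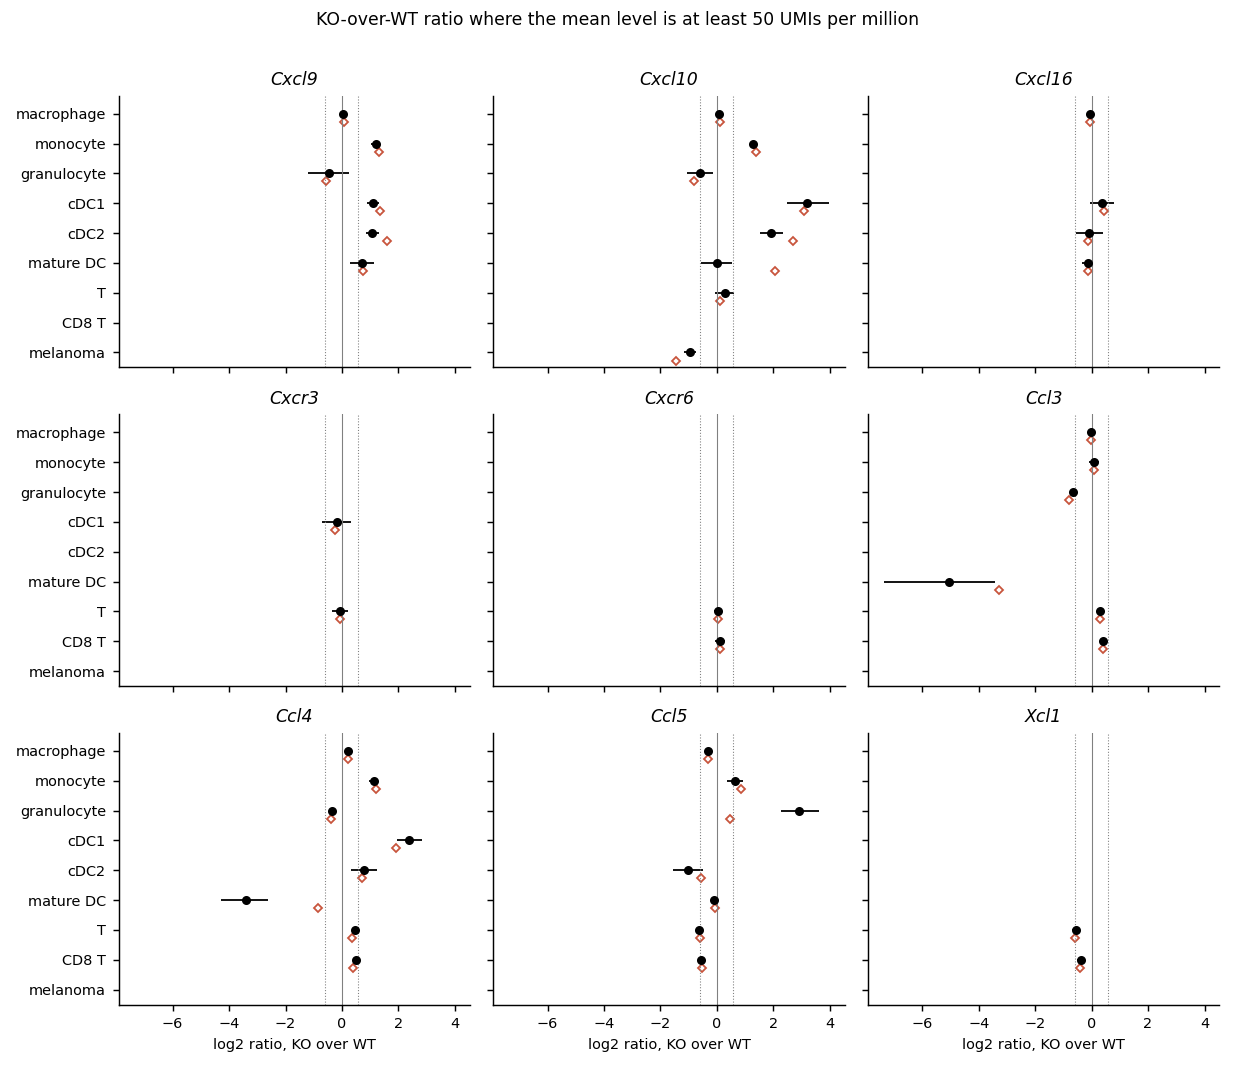
Log2 ratio of the library labelled KO over the library labelled WT for each gene and class with a mean of at least 50 CPM; black points with bars are the ratio and its counting interval, open diamonds the ratio without the top cell of each library, dotted lines 1.5-fold. Cxcl9 and Cxcl10 sat right of the line in monocytes (1.19 and 1.29), cDC1 and cDC2 and near 0 in macrophages (0.05 and 0.09), while for Ccl5 in granulocytes the diamond (0.46) stood far from the point (2.91).

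Another 20 genes of the same axes (further receptors, scavengers, proteases, the interferon-gamma pathway and signalling) were read in the same way, 19 of them with a row and Cxcl11 not analysed here. In cDC1 Ifngr1, a chain of the interferon-gamma receptor, was the 1 of 10 called lower (136 and 81.5), beside the 1.16% of all genes given above. Of 12 counted in cDC2, Ccr1 (95.1 and 60.1), Ifngr1 (257 and 159) and Rgs1, a brake on chemokine receptor signalling (82.6 and 49.7), were lower, beside 1.81% of all genes. In granulocytes Rgs1 was the 1 of 11 called (81.2 and 128), higher as were 9.82% of all genes, a share near that of the list, and 0 were called of 12 in macrophages, 9 in mature DCs, 11 in T cells, 11 in CD8 T cells and 3 in melanoma cells. Irf1, a transcription factor of the interferon response, was not among the calls, at 245 and 305 in monocytes. Ifng itself was 302 and 339 in CD8 T cells and 173 and 93.8 in NK cells.

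The monocyte gate had a different make-up in each library. Clustering of both libraries together, without the 9 genes, spread the gate mainly over 3 clusters: cluster 4, whose leading genes held Ace and Adgre4, known from patrolling monocytes, and Chil3, Hp and Fn1, known from classical ones; cluster 5, led by Vcan, Dmkn and Chil3, of which Vcan and Chil3 are monocyte markers of the gate; and cluster 7, led by the interferon-stimulated genes Rsad2, Ifit2 and Ifit3. Of the gate, cluster 4 took 45.5% (41.4 to 49.6, 270 cells) labelled WT and 31.6% (29.4 to 34.0, 511 cells) labelled KO, cluster 5 took 28.5% and 34.7%, and cluster 7 took 3.54% (2.20 to 5.35, 21 cells) and 10.6% (9.13 to 12.2, 171 cells). Because the genes that lead the clusters may themselves differ between libraries, these shares describe where the gate's cells lay and were not compared further.

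Within cluster 7 Cxcl10 was close in the libraries, at 2762 and 2661, and was 2365 and 2569 without the top cells. Cxcl9 there was 643 and 589, an order that turned without the top cells (364 and 493, the WT-labelled value resting on 21 cells). Ccl4 there was 577 (61 UMIs) and 1340 (985 UMIs), and 413 and 1193 without the top cells. Within cluster 5 Cxcl9 was 181 and 482, Cxcl10 361 and 754 and Ccl4 136 and 224, so in these cells the KO-labelled values remained higher for all 3 genes. Cluster 4 was low in all of them, with Cxcl9 at 32.1 and 42.0, Cxcl10 at 38.7 and 79.9 and Ccl4 at 65.1 and 52.6. The cells in other clusters, 22.6% and 23.1% of the gate, held Cxcl9 at 321 and 529, Cxcl10 at 199.6 and 328 and Ccl4 at 315 and 400.0. Ccl5, higher in the whole gate labelled KO, ran the other way in cluster 7, at 341 and 143, and at 120.1 and 109 without the top cells. Without the top cells the Cxcl9 and Cxcl10 values of cluster 5 were 115 and 446 and 307 and 723.

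**Figure D3:**
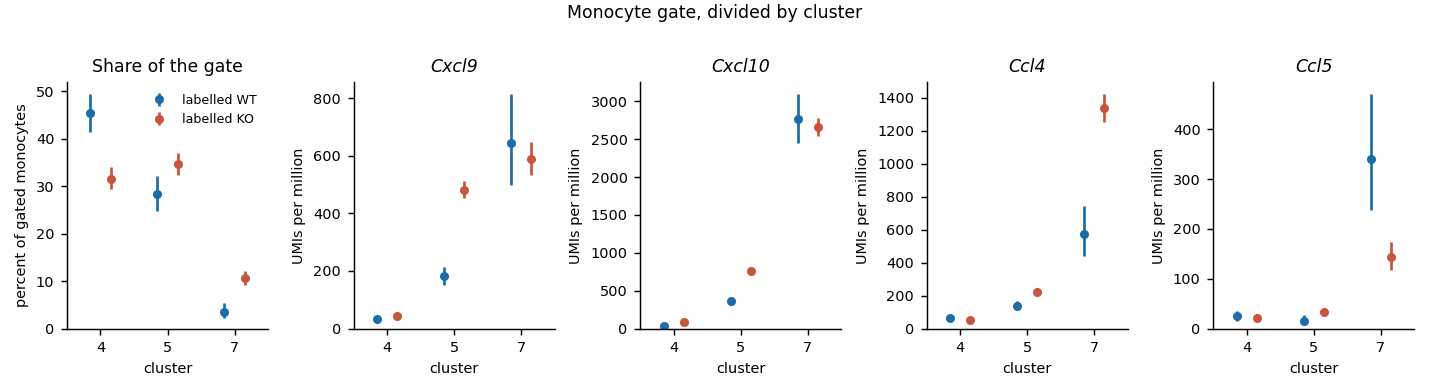
Share of the monocyte gate (%) in clusters 4, 5 and 7 and level (CPM) of Cxcl9, Cxcl10, Ccl4 and Ccl5 in the gated monocytes of each, for the libraries labelled WT and KO, with counting intervals. Cluster 7 made up 3.54% and 10.6% of the gate and held Cxcl10 at 2762 and 2661, and cluster 5 held Cxcl9 at 181 and 482.

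Monocytes were also divided by whether they held a UMI of Ace or Adgre4. Those with one had Cxcl9 at 100 and 408, Cxcl10 at 209 and 746 and Ccl4 at 145 and 571, labelled WT and KO, and those without had 196 and 393, 308 and 684 and 178 and 304. Inside the WT-labelled library both Cxcl9 and Cxcl10 were lower in the Ace or Adgre4 positive cells (log2 ratios of -0.96, -1.38 to -0.57, and -0.56, -0.85 to -0.28), and inside the KO-labelled library they were about level with the rest (0.05, -0.09 to 0.19, and 0.12, 0.02 to 0.22).

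CD8 T cells divided by a UMI of Gzmb, the gene of the cytotoxic protease granzyme B, held the chemokines in different places. With a Gzmb UMI Ccl3 was 1492 and 1698 and without one 231 and 208, log2 ratios of 2.69 (2.45 to 2.94) and 3.03 (2.71 to 3.37) within the libraries labelled WT and KO. Ccl4 was 2064 and 2658 with and 504 and 332 without. Ccl5 and Cxcr3 ran the other way: Ccl5 was 2871 and 1787 with and 4027 and 4003 without, and Cxcr3 was 22.1 and 23.0 with and 103 and 132 without. The Ccl5 gap between the libraries in CD8 T cells was therefore found in the Gzmb-positive cells and not in the Gzmb-negative ones, whose values were nearly level, and the difference between the gaps was not tested. Xcl1 had no shared direction, at 380 and 748 with and without Gzmb labelled WT and 404 and 296 labelled KO. Gzmb-positive cells were deeper (medians of 5779 and 5547 UMIs against 2244 and 1677), and the part of depth was not tested.

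Cycling CD8 T cells, those with UMIs of at least 2 of Mki67, Top2a, Stmn1 and Birc5, held less Ccl5 (1118 and 846 against 5969 and 4938) and less Cxcr3 (11.5 and 10.3 against 95.1 and 111) than non-cycling ones. Cycling cells were deeper here too, at medians of 9402 and 10798 UMIs against 2369 and 1817, and the part of depth was not tested. Their Ccl4 was about the same, 1522 and 2258 against 1605 and 2140. Cxcr6 was lower in cycling cells, 193 and 214 against 304 and 359.

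**Figure D4:**
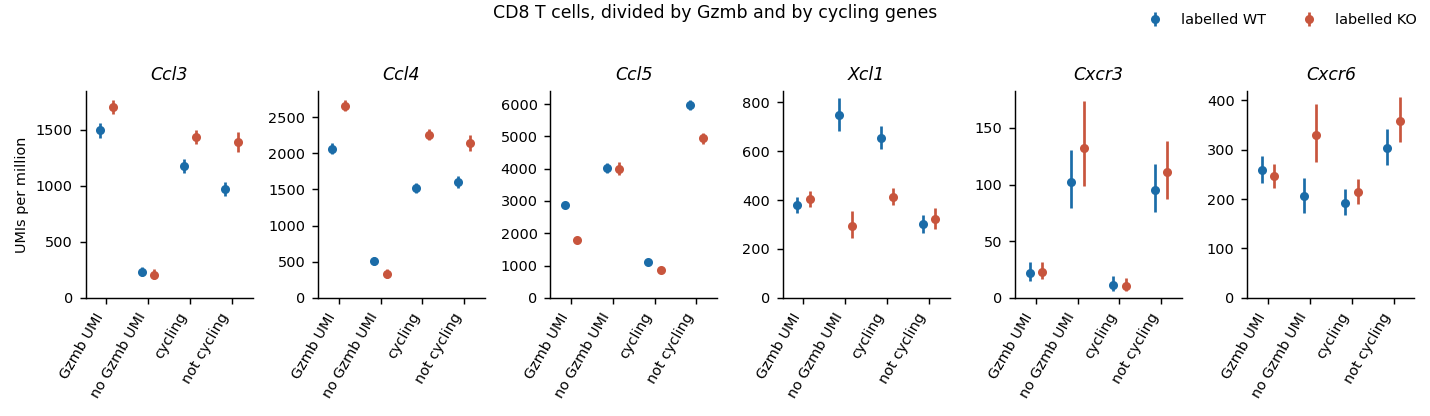
Level (CPM) of Ccl3, Ccl4, Ccl5, Xcl1, Cxcr3 and Cxcr6 in CD8 T cells with or without a Gzmb UMI and in cycling or non-cycling ones, for the libraries labelled WT and KO, with exact Poisson intervals. Ccl3 stood at 1492 and 1698 with Gzmb and 231 and 208 without, whereas Ccl5 stood at 1118 and 846 in cycling and 5969 and 4938 in non-cycling cells.

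For several pairs, the second gene was found in a larger share of the cells that held the first than of the rest. After thinning, 65.9% (54.6 to 76.0) of the WT-labelled CD8 T cells with Ccl3 also held Ccl4, against 28.02% (22.6 to 33.9) of those without, and 74.7% against 17.3% labelled KO. Granulocytes gave 61.1% against 21.2% and 59.0% against 14.7%, and macrophages 42.8% against 17.1% and 45.5% against 21.3%. Cxcl10 was found in 51.7% (32.5 to 70.6) of the WT-labelled monocytes with Cxcl9, against 9.14%, and in 38.3% (31.3 to 45.7) of the KO-labelled ones, against 17.1%. In macrophages it was in 20.05% against 8.52% and 21.2% against 9.90%, whereas in cDC1 it was in 0 of 14 cells with Cxcl9 against 1.98% of the rest labelled WT and in 12.5% (3 of 24 cells) against 8.86% labelled KO, with overlapping intervals. Cxcl16, on another chromosome, was found in 31.8% (27.3 to 36.5) of the WT-labelled macrophages with Cxcl9 against 21.8% (19.3 to 24.4), and in 30.3% (26.3 to 34.6) against 21.9% (19.7 to 24.3) labelled KO. The receptors did not pair in this way, Cxcr6 being found in 22.9% of T cells with Cxcr3 and 25.2% without labelled WT, and in 31.6% and 27.8% labelled KO, with overlapping intervals.

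Over the sums of 8 classes in the 2 libraries, 16 points that share library, depth and free RNA, Ccl3 and Ccl4 had a Pearson correlation of 0.98, Cxcr6 and Xcl1 of 0.94, and Cxcl9 and Cxcl16 of 0.79. NK and CD4 T cells, with fewer than 100 cells in the library labelled WT, were not among these classes, and in them Cxcr6 and Xcl1 parted. NK cells held Xcl1 at 1499 and 694 with Cxcr6 at 15.2 and 18.8. CD4 T cells held Cxcr6 at 513 and 296 with Xcl1 at 0 and 23.2. Among 5593 genes the pattern most like that of Cxcl9 was that of Ly86 (0.97), then Sdc3 and Aif1. For Cxcl10 it was Oas1a (0.89), then Xaf1 and Gga1. Cxcl16 was nearest to Cd83 (0.96), Bcl2a1a and Tnfrsf11a, and Ccl5 to Cblb (0.97), Tnfrsf4 and Gramd1b. Ccl3 and Ccl4 shared Armc7 (0.92 for both) and Rilpl2, followed by Mctp2 for Ccl3 and Hcst for Ccl4. Xcl1 was nearest to Zap70 (0.98), Gpr174 and Cd6, Cxcr6 to Trbc2 (0.97) and Il2rb, and Cxcr3 to H2afx (0.87), Arsb and Tshz1. Cd6 and Trbc2 are themselves T cell markers of the gates, so their high level in the T cell classes was set in part by the gating.

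How much of each gene's RNA a class held depended on its number of cells as well as on its level. Macrophages held 75.2% of the Cxcl9 UMIs labelled WT and 61.2% labelled KO, and monocytes 2.37% and 10.2%. Of the Cxcl10 UMIs, macrophages held 54.6% and 34.1% and monocytes 8.51% and 29.4%. Granulocytes held 27.3% and 7.41% of Ccl3 and 20.8% and 5.31% of Ccl4, with 584 and 258 cells in the gate. CD8 T cells held 33.3% and 22.3% of Ccl5 and 52.3% and 44.4% of Xcl1, while mature DCs, only 105 and 146 cells, held 23.2% and 27.6% of Ccl5. Over all kept cells Cxcl10 was at 205 and 296 CPM, Cxcl9 at 450 and 485 and Ccl4 at 477 and 479. The number of cells of a class recovered depends on the sort and loading of each library, and with 1 library each this cannot be told apart from the genotype.

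**Figure D5:**
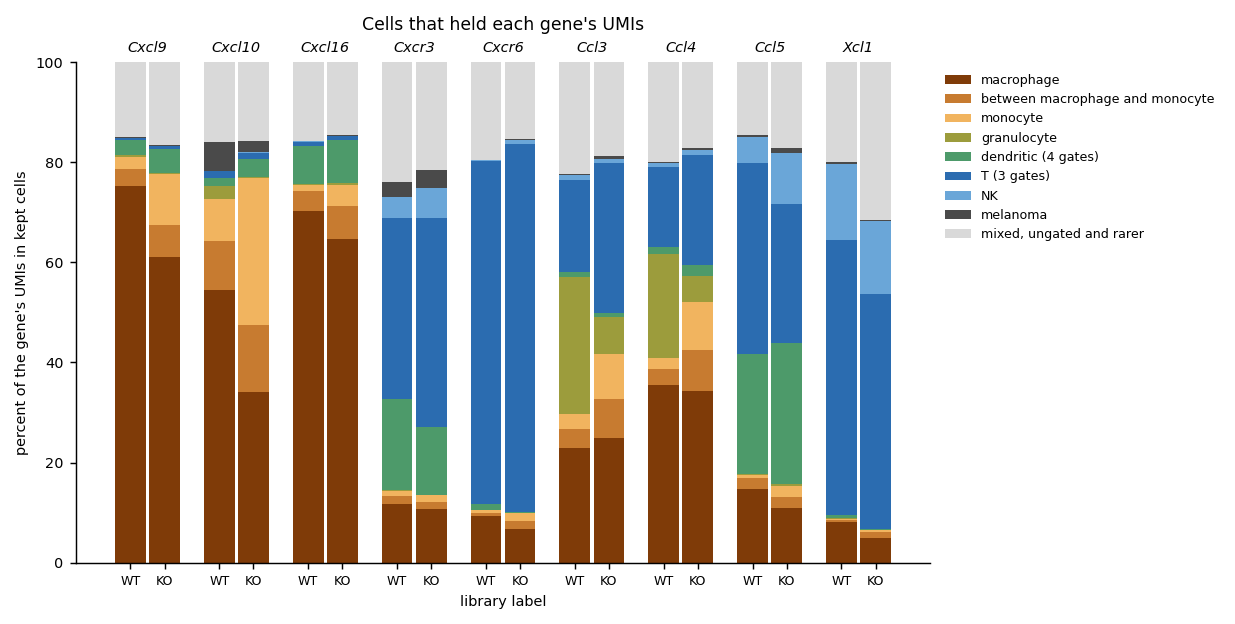
Percent of each gene's UMIs that came from each source class, stacked to 100%, for the libraries labelled WT and KO. Monocytes took 8.51% and 29.4% of Cxcl10, and granulocytes 27.3% and 7.41% of Ccl3.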

How the data were processed

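The authors deposited whole-number UMI counts per gene and cell, with no normalisation, and a table that gave the library of each barcode. They were made with the 10x Genomics 3' v3 chemistry, aligned to mm10 and, per the file headers, counted with Cell Ranger 4.0.0. Barcodes with at least 200 genes and at most 10% mitochondrial UMIs were kept. The automatic threshold of Scrublet marked 1 cell in each library, so the highest scores were removed at 0.8% per 1000 cells (256 and 532 cells). Each cell was assigned to the class with the highest marker score (score at least 0.15, margin at least 0.05), and cells with a second high score were set aside as mixed. Of the 18 marker lists, those of CD8 T, CD4 T and regulatory T cells were not scored. T cells with a Cd8a or Cd8b1 UMI and no Cd4 UMI were taken as CD8 T cells. Those with a Cd4 UMI and neither of the others were taken as CD4 T cells, and the rest as unclear. These thresholds were set after the data were seen, and the members, marker lists and pathway list were chosen with earlier results of these data known. Raw UMIs were summed per library and class and given per 1000000 UMIs of the class (CPM). Levels carry exact Poisson intervals, ratios exact conditional binomial intervals and shares Clopper-Pearson intervals, at 95%, and a count of 0 allows up to 3 counts. Ratios were made in classes with at least 100 cells in each library. NK, CD4 T, plasmacytoid DC and plasma cells had fewer in at least 1 library, as did B cells, and their levels stand side by side. Sequences came from RefSeq and gene positions from GENCODE vM21. Named genes were the 9 members in every class, the pathway list, and for each member the 3 genes with the highest correlation over the class sums. Results on some items are not reported here. Clusters were made with scanpy 1.11.5 and Leiden clustering (leidenalg 0.10.2, resolution 1, 2000 variable genes without the members), and the rest with Python 3.11.15, numpy 2.4.6 and scipy 1.17.1. The ratios, their intervals and the calls past 1.5-fold were tested on counts simulated from the sums of the monocyte gate. The gating was not tested in this way. The alternatives covered clusters in place of gates, cell filters, doublets, thinning to 1000 UMIs, weights of cells, single cells, scaling and stricter gates.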

Additional observations from a re-analysis of the deposited data

How the results depend on the processing

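No paired analysis was possible because each genotype had 1 library, and no test between genotypes could be made, so the limits are those of counting error and of 1 library each. The log2 ratio of Cxcl9 in macrophages was 0.05 and became -0.066 with Leiden clusters as classes, 0.12 with cells thinned to 1000 UMIs and 0.16 with the mean of cells. Cxcl10 in monocytes (1.29) was 0.78 with Leiden clusters, 1.08 thinned, 1.17 by the mean of cells and 1.61 with stricter gates. Cxcl16 in mature DCs (-0.15) was 0.10 thinned, and Cxcr6 in T cells (0.03) was 0.27 thinned and 0.24 by the mean of cells. Ccl3 in granulocytes (-0.66) was -0.78 with every barcode, -0.78 without doublet removal, -0.79 without the top cells, -0.84 with trimmed-mean scaling and -0.85 with stricter gates. Ccl4 there (-0.35) was -0.24 with Leiden clusters, -0.47 without doublet removal, -0.53 with trimmed-mean scaling and -0.48 with stricter gates. Ccl5 in mature DCs (-0.11) was -0.20 with every barcode and without doublet removal, -0.26 thinned, -0.25 by the mean of cells, -0.18 with trimmed-mean scaling and -0.045 with stricter gates. Xcl1 in CD8 T cells (-0.38) was 0.13 thinned and -0.57 with stricter gates. The causes were not tested. The 12 member-by-class values past 1.5-fold higher stayed within 1.5 times that number under all 9 alternatives, and the 5 lower became 2 with Leiden clusters, 8 with at least 1000 UMIs and at most 5% mitochondrial UMIs, 3 without the top cells, 8 with trimmed-mean scaling and 3 with stricter gates. The percentage of all genes past 1.5-fold in either direction was 1.36 in macrophages (2.51 with no minimum), 4.24 in monocytes (12.4), 14.5 in granulocytes (22.4 at a minimum of 20 CPM, 38.5 with none) and 1.98 in CD8 T cells (4.21 and 16.9).

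Chosen after the data were seen, the same 9 alternatives were applied to every class. Of the 12 values called higher 6 stayed past 1.5-fold in all 9, among them Cxcl9, Cxcl10 and Ccl4 in monocytes, and of 6 called lower, melanoma cells included, 2 did. Cxcl9 and Cxcl10 in cDC1 were 0.20 and 0.42 with stricter gates. Ccl4 turned to -0.70 in thinned cDC2 and to 0.26 in mature DCs with stricter gates, and Ccl5 in monocytes to -0.046 with Leiden clusters and -0.60 with stricter gates.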
